A study of Homo sapiens with 6 samples.

Results

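The proteasome is built from the products of 38 genes taken here as members, out of 19053 genes with a symbol in the deposited expression table. The members were chosen by name and not by their values, but with earlier results of these data known. They are the 7 alpha and 7 constitutive beta genes of the core particle, the 3 interferon-inducible beta genes, the 6 ATPase genes, 4 other base genes and 8 lid genes of the regulatory particle, and the 3 PA28 activator genes. All measurements come from K562, an established chronic myeloid leukemia line of erythroid character that carries BCR-ABL. RNA was sequenced from 3 libraries of a K562 line with a stable hairpin that targets lncRNA-IUR-5, named sh-IUR-5, and from 3 libraries of a line whose hairpin targets luciferase, named sh-luc. Both hairpins were delivered in the same lentiviral vector. The sample labels call the targeted transcript lncRNA-IIRX. No drug or time course divides the 6 libraries, and 1 shRNA stands for the knockdown. The level of the lncRNA itself was not analysed here, since each row of the table is a protein accession.

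The proteasome degrades proteins that carry ubiquitin chains. Its core particle is a barrel whose outer alpha rings gate the entrance and whose inner beta rings hold the proteolytic sites, with caspase-like activity in PSMB6, trypsin-like activity in PSMB7 and chymotrypsin-like activity in PSMB5. The regulatory particle binds the chain, removes it and threads the substrate into the barrel with its ATPase ring. Interferon induces PSMB9, PSMB10 and PSMB8, which take the places of PSMB6, PSMB7 and PSMB5 in the immunoproteasome, and induces the activators PSME1 and PSME2. Blood cancers with high protein output are known for sensitivity to drugs that block the chymotrypsin-like site.

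Between 21023739 and 31481109 reads per library were counted on accessions. TMM factors, which correct total reads for composition, were 0.925 to 0.938 in sh-luc and 1.05 to 1.11 in sh-IUR-5. Levels are given below as scaled RPKM, the deposited RPKM (reads per kilobase of coding length, relative to the library's total reads) divided by the TMM factor, always in the order of libraries 1, 2 and 3. Of the erythroid markers, GATA1, KLF1, HBZ and the near-identical HBG1 and HBG2 had at least 40.8 scaled RPKM in every library and TAL1 had 1.32 to 2.98, while 6 markers of other blood lineages reached at most 0.577 and MS4A1 and MPO had no reads. GATA1, HBZ, HBG1 and HBG2 were lower and TAL1 higher in sh-IUR-5, and the part of these shifts in the proteasome values was not tested. GATA1 lost its call without sh-IUR-5 3 (-0.27) and with total reads (-0.14). In the labels, libraries 2 and 3 of a group bear one series number and library 1 another. Library 1 was the lowest of its group for 32 of 37 tested members in sh-luc and for 35 of 37 in sh-IUR-5. The methods name 3 independent groups of cells, extraction with TRIzol and a standard Illumina protocol. Whether the groups were separate cultures is not given in the sources used here, so the p-values measure the spread between these libraries.

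Most proteasome mRNAs were lower in sh-IUR-5 cells. Of the 37 members that could be tested, 21 fell, 1 rose and 15 did not pass an adjusted p of 0.05 (edgeR's quasi-likelihood test, Benjamini-Hochberg over 38204 accessions, each gene taken at the accession with most reads). Among all 8873 genes tested in the same way, 23.5% were lower and 22.4% higher, 45.9% in either direction, and of all accession rows 37.3% passed. The members' median log2 fold change was -0.27 against -0.01 for all genes, and 33 members had a negative and 4 a positive value. For 23 members every sh-IUR-5 library lay below every sh-luc library, for PSME3 every one lay above and for 13 the groups overlapped. The same patterns were found for 28.4% and 25.7% of all genes. Scaled to total reads without TMM factors, the median of all genes moved to 0.20 and that of the members to -0.07, with 11 members lower and 5 higher, and 12.0% of all genes were then lower and 39.3% higher. Relative to all genes the members' median was -0.27 both with TMM scaling and with total reads. A change of scaling moves all genes by nearly the same amount, so this difference could hardly change. Because these are bulk libraries, a lower value per cell and a smaller share of cells with the mRNA cannot be told apart.

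**Figure D1:**
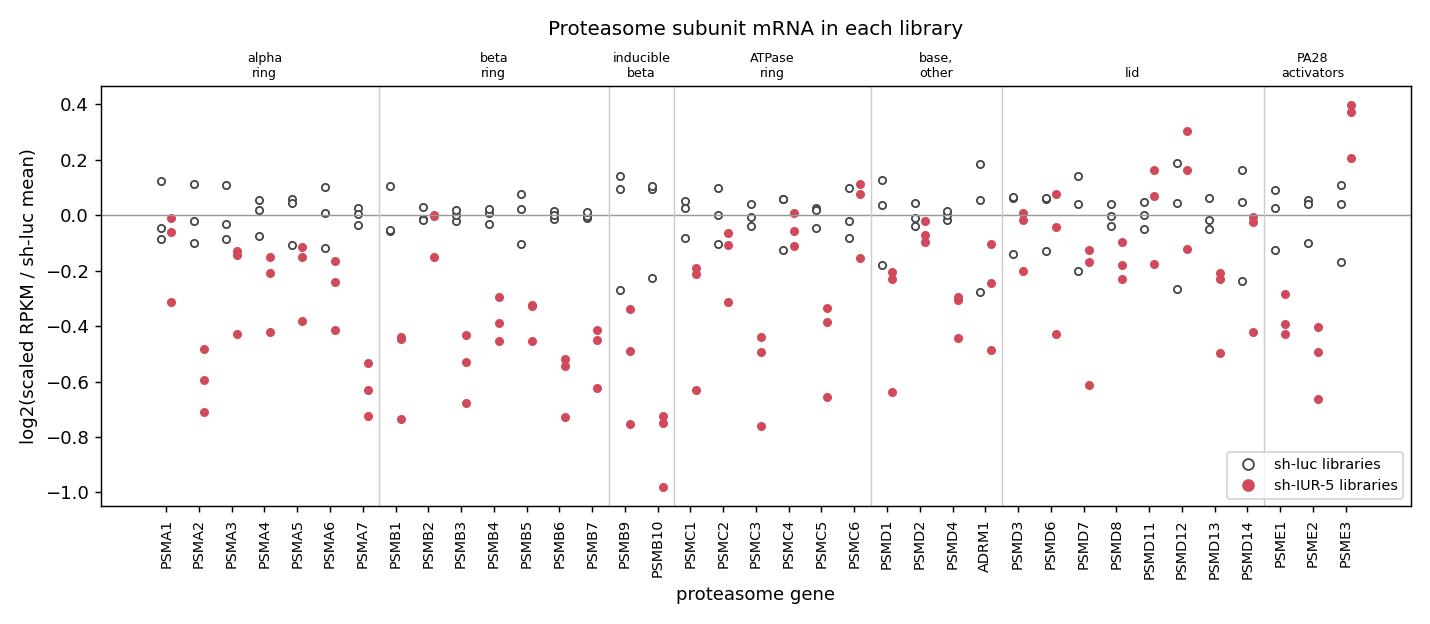
Scaled RPKM of each member in each library, as log2 of its ratio to the sh-luc mean (y axis), by gene and subgroup (x axis), with open points for the 3 sh-luc and filled points for the 3 sh-IUR-5 libraries. PSMB8, with at most 1 read per library, is not drawn. The filled points lie below the open ones for 23 members and above them for PSME3 alone.

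Expression level was related to the direction of change over all genes, and the members are highly expressed. Of the 37 tested members, 32 belonged to the most expressed of 5 equal bins of all genes, with a mean RPKM of 38.2 or more. In that bin the median log2 fold change of all genes was -0.25, with 54.1% of genes lower and 9.35% higher. The 32 members in it had a median of -0.28, with 19 lower and none higher. The share of members that fell thus lay near the share of all genes of similar level. In the 4 lower bins, the medians of all genes were 0.17, 0.14, 0.05 and -0.06 from the least expressed bin upwards. Coding length ran with the change as well, with a median of -0.20 in the bin of genes with the shortest coding sequences and 0.19 in the bin with the longest, and the median coding length of the members was 834 bases. The part of level and length in the members' values was not tested. A refit that removed length trends had 19 members lower, with 23.4% of all genes lower. Refits that removed GC and length trends had 28 lower with the replicate number as a block, with 27.8% of all genes lower. Without that block they had 24 lower, with 23.0% of all genes lower.

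**Figure D2:**
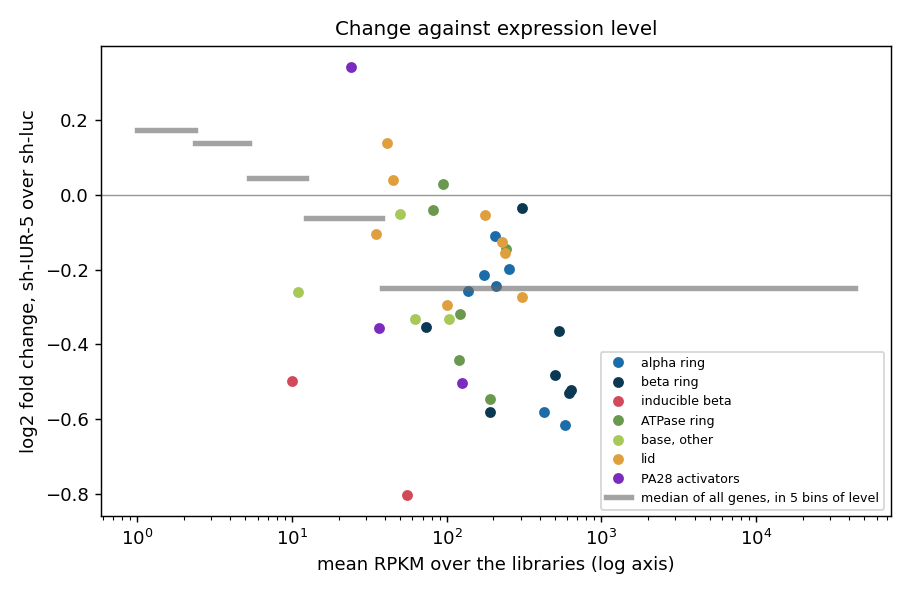
Log2 fold change of each tested member (y axis) against its mean RPKM (x axis, log scale), coloured by subgroup, with grey bars for the median of all genes in each of 5 bins of level. The grey bar of the most expressed bin lies at -0.25, and the beta ring genes other than PSMB2 lie below it while most lid genes lie above it.

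The inducible subunits held the largest fall of any member. PSMB10, the inducible trypsin-like subunit (chr16:67934506-67936864, hg38), had 61.2, 76.5 and 76.99 scaled RPKM in sh-luc and 36.2, 43.3 and 42.6 in sh-IUR-5. All 3 sh-IUR-5 values were well below the lowest control, and the mean went from 71.6 ± 8.97 to 40.7 ± 3.89 (SD, n = 3; log2 fold change -0.80 ± 0.098, edgeR adjusted p = 6.3e-06). PSMB9, the inducible subunit that takes the place of PSMB6 (chr6:32844136-32859851), stood at 13.2, 9.91 and 12.8 in sh-luc and 9.46, 8.51 and 7.10 in sh-IUR-5. It also fell without overlap, from a low level (log2 fold change -0.50 ± 0.14, edgeR adjusted p = 0.0082). The third inducible subunit, PSMB8 (chr6:32840717-32844679), lies beside PSMB9 in the class II region of the major histocompatibility complex. Its coding row held 1 read in sh-luc library 2, 1 read in sh-IUR-5 library 1 and 0 reads in the others, where 3 reads would have been 0.116 to 0.174 RPKM. No fold change is given for PSMB8, which lay under 3 reads in every library. Over the 6 libraries its constitutive counterpart PSMB5 had 8439 reads and PSMB8 had 2.

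A short stretch upstream of PSMB10 and PSME2 is shown because both genes fell and both carry the same interferon-type element. They were picked with their falls known, and a part of the element in the falls was not tested. The RefSeq windows of GRCh38.p14 reach from 250 bases before to 50 after each annotated start, and windows were found for 33 of the 38 members (41 windows). Capitals mark a match to GAAANNGAA, the core of the interferon-stimulated response element, searched on both strands.
PSMB10 (chr16:67936851-67936891, minus strand): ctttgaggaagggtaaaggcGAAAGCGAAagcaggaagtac
PSME2 (chr14:24146611-24146658, minus strand): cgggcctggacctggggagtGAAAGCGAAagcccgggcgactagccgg
The capitals end at position -13 of PSMB10 and -20 of PSME2, counted from the RefSeq start of the window. The letters GAAANNGAA were found in 7 of the 41 member windows (17.1%) and in 8.11% of 35116 windows of all genes. PSME1 and PSMB8 hold it as well, across or after their start, and so do PSMA4, PSMB4 and PSMC2. Of these, PSMC2 did not pass and PSMB8 was not tested. The 6 tested members with these letters had a median log2 fold change of -0.36 and the 26 with a window but without them -0.21. These letters are not in the window of PSMB9.

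Ratios within a library do not depend on scaling, so each inducible subunit was set against the constitutive subunit of its site. PSMB10 amounted to 10.4%, 12.9% and 12.9% of PSMB7 in sh-luc and to 9.45%, 9.77% and 9.83% in sh-IUR-5. The groups did not overlap, and the log2 ratio was lower by 0.31 in sh-IUR-5 (log2 difference -0.31, exact two-sided permutation test, p = 0.1, the smallest that 3 against 3 libraries allow, 0.2 after adjustment over 2 ratios). PSMB9 amounted to 5.73%, 4.21% and 5.48% of PSMB6 in sh-luc and to 6.73%, 5.24% and 4.44% in sh-IUR-5. Those groups overlapped, and the log2 difference of 0.08 was smaller than the spread between libraries (pooled SD 0.27, exact permutation p = 0.8, adjusted 0.8). Without sh-luc 2 it was -0.06 and without sh-IUR-5 1 it was -0.08.

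In the constitutive beta ring 6 of 7 genes fell, none rose and the median log2 fold change was -0.48. The sh-luc means of the ring, 83.3 to 766 scaled RPKM, lay within the range of the most expressed bin. In that bin 54.1% of all genes were lower and the median was -0.25. PSMB6, the caspase-like subunit, had 230.4, 235 and 233 scaled RPKM in sh-luc and 141, 162 and 159.8 in sh-IUR-5. The control values were close to each other, and the sh-IUR-5 values were all far below (log2 fold change -0.58 ± 0.075, edgeR adjusted p = 1.1e-05). PSMB7, the trypsin-like subunit, had 587, 591 and 596 in sh-luc and 384, 443 and 433 in sh-IUR-5. PSMB5, the chymotrypsin-like subunit and the main target of proteasome inhibitors, had a lower level of 77.5, 87.8 and 84.6 in sh-luc and 60.8, 66.4 and 66.5 in sh-IUR-5. Both fell with no overlap between groups (log2 fold change -0.48 ± 0.071, edgeR adjusted p = 4.3e-05 for PSMB7, and log2 fold change -0.35 ± 0.08, edgeR adjusted p = 0.0019 for PSMB5). The catalytically inactive neighbours PSMB3 and PSMB1 were the most abundant members of the ring per length in sh-luc. PSMB3 went from 724, 735 and 745 to 460.0, 545 and 509, and PSMB1 from 736, 824 and 739 to 461, 565 and 563. Their changes were close in size (log2 fold change -0.53 ± 0.073, edgeR adjusted p = 2.1e-05 for PSMB3, and log2 fold change -0.52 ± 0.082, edgeR adjusted p = 8e-05 for PSMB1). PSMB4 fell by less (log2 fold change -0.36 ± 0.068, edgeR adjusted p = 0.00042). PSMB2 stood apart in the ring, with 308, 308 and 317 in sh-luc and 280.0, 311 and 310.4 in sh-IUR-5, and its groups overlapped (log2 fold change -0.04 ± 0.071, edgeR adjusted p = 0.72, 95% interval -0.19 to 0.11). Scaled to total reads, the log2 fold change of PSMB2 was 0.17 and passed the threshold upwards.

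In the alpha ring 4 of 7 genes fell, none rose and the median was -0.24. Its sh-luc means, 151 to 720 scaled RPKM, also lay within the range of the most expressed bin, with 54.1% of all genes lower and a median of -0.25. The share and median of the alpha ring were thus near those of all genes of similar level. PSMA7 and PSMA2 had the largest changes. PSMA7 (chr20:62136733-62143440), the most abundant alpha subunit per length in sh-luc, had 704, 734 and 723 scaled RPKM there and 436, 498 and 465 in sh-IUR-5. PSMA2 (chr7:42916828-42932185) had 487, 563 and 514 in sh-luc and 318, 373 and 345 in sh-IUR-5. For both, the sh-IUR-5 libraries were all below the controls by a margin wider than the spread in either group (log2 fold change -0.61 ± 0.07, edgeR adjusted p = 3e-06 for PSMA7, and log2 fold change -0.58 ± 0.078, edgeR adjusted p = 1.6e-05 for PSMA2). PSMA6 and PSMA4 fell by smaller amounts. PSMA6 had 139.5, 162 and 152 in sh-luc and 114, 128 and 135 in sh-IUR-5 (log2 fold change -0.26 ± 0.083, edgeR adjusted p = 0.02), and PSMA4 had 215, 235 and 229.5 in sh-luc and 169, 196 and 204 in sh-IUR-5 (log2 fold change -0.24 ± 0.079, edgeR adjusted p = 0.021). PSMA4 lost its call without sh-luc 2, without sh-luc 3 and without sh-IUR-5 1, and PSMA6 without sh-luc 2 and without sh-luc 3. Both also lost it with total reads (-0.04 for PSMA4 and -0.05 for PSMA6), with limma on RPKM, at a mean RPKM of at least 5 and with the length trend removed. PSMA3 (-0.21, edgeR adjusted p = 0.055) and PSMA5 (-0.20, edgeR adjusted p = 0.06) did not pass, although their groups did not overlap. With the label series as a term in the model both passed (edgeR adjusted p = 0.0018 for PSMA3 and 0.0026 for PSMA5), which made 12 of the 14 core genes lower. Of all genes, 29.1% were lower in that fit. PSMA1 had a log2 fold change of -0.11 with overlapping groups.

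Across the 18 member genes of the regulatory particle 7 fell, none rose and the median was -0.15. In the constitutive core 10 of 14 fell and the median was -0.36. Beside these counts, 23.5% of all genes were lower, and 54.1% of those in the most expressed bin. Scaled to total reads, the median of the regulatory particle turned to 0.06, with 2 genes lower and 3 higher, and that of the core was -0.15, with 7 lower. With that scaling 12.0% of all genes were lower and 39.3% higher. The core genes also had the higher levels (median sh-luc mean of 292 scaled RPKM, against 114 in the regulatory particle) and the shorter coding sequences (median 744 against 1240.5 bases), whose part in this difference was not tested. The summed scaled RPKM of the 14 core genes was 4.78, 4.38 and 4.37 times that of the 8 lid genes in sh-luc and 3.95, 3.71 and 3.62 times in sh-IUR-5. No sh-IUR-5 library reached the lowest control, but this rests on which lid genes are summed. SEM1, a small and abundant lid subunit that is not among the 38 members, fell by more than any of the 8, and with SEM1 in the lid sum the ratio was 2.46, 2.35 and 2.31 in sh-luc and 2.47, 2.31 and 2.20 in sh-IUR-5, so the groups overlapped. Over the 8 genes alone, within the series numbered 1, which has 1 library of each group, the ratio was 4.78 against 3.95, and within series 2 it was 4.38 and 4.37 against 3.71 and 3.62. The same ratio taken against the 18 member genes of the regulatory particle was 2.40, 2.26 and 2.26 in sh-luc and 2.07, 1.97 and 1.94 in sh-IUR-5. With SEM1 added it lay between 1.55 and 1.63 in sh-luc and between 1.45 and 1.58 in sh-IUR-5, which overlapped as well. These ratios compare mRNAs within a library and say nothing of assembled particles, and they are given with no test because the subunits were grouped with earlier results of these data known.

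**Figure D3:**
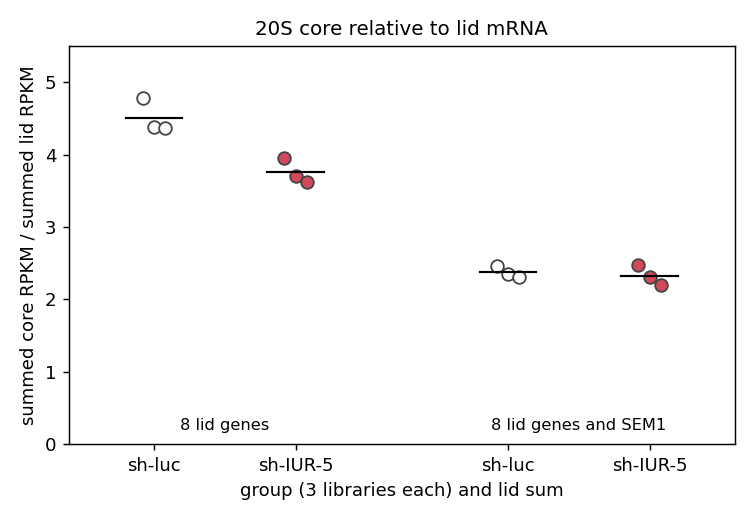
Ratio of the summed RPKM of the 14 constitutive core genes to that of the lid (y axis) in each library, by group (x axis), with the 8 member lid genes on the left, SEM1 added on the right and bars at the group means. With the 8 genes the sh-luc libraries lie at 4.37 to 4.78 and the sh-IUR-5 libraries at 3.62 to 3.95, and with SEM1 they overlap at 2.31 to 2.46 and 2.20 to 2.47.

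The ATPase ring, which unfolds substrates, had 3 of 6 genes lower, none higher and a median of -0.23. Its sh-luc means, 82.4 to 255 scaled RPKM, lay within the range of the most expressed bin, with 54.1% of all genes lower and a median of -0.25. The ring's share and median were thus near those of all genes of similar level. PSMC3 (chr11:47418769-47426473) had 224, 236 and 229 scaled RPKM in sh-luc and 136, 169 and 163 in sh-IUR-5. PSMC5 had 135, 142 and 141 in sh-luc and 88.3, 110.3 and 107 in sh-IUR-5, and PSMC1 had 129, 142 and 139.7 in sh-luc and 88.5, 119 and 120.3 in sh-IUR-5. The sh-IUR-5 values were below all controls for each, with library 1 the lowest (log2 fold change -0.55 ± 0.081, edgeR adjusted p = 4.3e-05 for PSMC3, log2 fold change -0.44 ± 0.082, edgeR adjusted p = 0.00041 for PSMC5, and log2 fold change -0.32 ± 0.096, edgeR adjusted p = 0.014 for PSMC1). The call of PSMC1 was lost without sh-luc 2 and without sh-luc 3. It was also lost with total reads (-0.12), with limma on RPKM and at a mean RPKM of at least 5. On the opposite strand, exons of other genes cover 47.7% of the coding bases of PSMC1 (NRDE2) and 10.3% of those of PSMC5 (FTSJ3), and reads of the 2 strands may not have been told apart. PSMC2 had 237, 273 and 255 in sh-luc and 205, 244 and 237 in sh-IUR-5, which overlapped (log2 fold change -0.15 ± 0.079, edgeR adjusted p = 0.15). PSMC4 (-0.04) and PSMC6 (0.03) had overlapping groups, with 95% intervals of -0.20 to 0.12 and -0.14 to 0.20.

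Among the other base genes, PSMD4 and PSMD1 fell and ADRM1 and PSMD2 did not pass, with a median of -0.30 over the 4. For scale, 23.5% of all genes were lower, and 54.1% of those in the most expressed bin. PSMD4, a receptor for ubiquitin chains, had 115, 117 and 118 scaled RPKM in sh-luc and 85.9, 95.1 and 94.4 in sh-IUR-5. PSMD1, a large scaffold subunit, had 62.2, 76.96 and 72.3 in sh-luc and 45.3, 61.2 and 60.1 in sh-IUR-5. The groups did not overlap for either gene (log2 fold change -0.33 ± 0.073, edgeR adjusted p = 0.0015 for PSMD4, and log2 fold change -0.33 ± 0.1, edgeR adjusted p = 0.015 for PSMD1). PSMD1 lost its call without sh-luc 2, without sh-luc 3, at a mean RPKM of at least 5 and with summed rows. Both genes lost it with total reads (-0.13 each) and with limma on RPKM. The other scaffold subunit, PSMD2, had 49.3, 50.4 and 52.3 in sh-luc and 47.4, 49.9 and 48.2 in sh-IUR-5 (log2 fold change -0.05 ± 0.07, edgeR adjusted p = 0.61). ADRM1, the second ubiquitin receptor of the list, had 9.87, 12.4 and 13.6 in sh-luc and 8.54, 11.1 and 10.1 in sh-IUR-5, which overlapped (log2 fold change -0.26 ± 0.12, edgeR adjusted p = 0.1). Part of the coding bases of ADRM1 (19.4%) is also covered by exons of LAMA5 on the other strand.

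The lid, which cuts ubiquitin chains from the substrate, had 2 of its 8 member genes lower and none higher. The share lower was 23.5% over all genes and 54.1% in the most expressed bin. SEM1 is not counted here, and with it 3 of 9 lid genes were lower, with a median of -0.13. The median of the 8 was -0.12 with TMM scaling and turned to 0.09 with total reads, to 0.07 with RPKM in limma and to 0.005 without sh-IUR-5 1. PSMD13 had 108, 117 and 111 scaled RPKM in sh-luc and 79.4, 96.9 and 95.4 in sh-IUR-5. PSMD7, the partner of the deubiquitinase PSMD14, had 297, 376 and 351 in sh-luc and 223, 303 and 313 in sh-IUR-5. The groups were apart for PSMD13 (log2 fold change -0.29 ± 0.082, edgeR adjusted p = 0.0088) but overlapped for PSMD7 (log2 fold change -0.27 ± 0.11, edgeR adjusted p = 0.049), whose call was lost without sh-luc 2, without sh-luc 3 and without sh-IUR-5 1. PSMD14 itself, the deubiquitinase at the entrance, had 203, 268 and 248 in sh-luc and 179, 236 and 239 in sh-IUR-5. Its log2 fold change of -0.13 lay within a wide interval (-0.35 to 0.10). PSMD8 had 253, 247 and 261 in sh-luc and 216, 238 and 224 in sh-IUR-5, without overlap but also without passing (log2 fold change -0.15 ± 0.07, edgeR adjusted p = 0.088). The log2 fold changes of PSMD3 (-0.05), PSMD6 (-0.11), PSMD11 (0.04) and PSMD12 (0.14) did not pass, and their groups overlapped. Without sh-IUR-5 1, PSMD12 passed upwards with 0.25.

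Of the 3 activators, 2 fell and 1 rose, where 23.5% of all genes were lower and 22.4% higher. PSME1 (chr14:24136163-24138967) and PSME2 (chr14:24143362-24147570), neighbours on opposite strands, encode the alpha and beta subunits of the cytosolic PA28 ring that opens the core gate. PSME1 had 44.3, 42.3 and 38.1 scaled RPKM in sh-luc and 31.7, 34.1 and 30.9 in sh-IUR-5, and PSME2 had 156, 154 and 139.5 in sh-luc and 94.6, 113 and 106 in sh-IUR-5. Both fell with no overlap (log2 fold change -0.35 ± 0.089, edgeR adjusted p = 0.0043 for PSME1, and log2 fold change -0.50 ± 0.082, edgeR adjusted p = 0.00011 for PSME2). PSME3 (chr17:42824385-42843760), which encodes the nuclear PA28 gamma ring, had 18.9, 21.8 and 22.9 in sh-luc and 24.5, 27.4 and 27.9 in sh-IUR-5. With TMM scaling it was the only member to pass upwards, with all sh-IUR-5 libraries above the controls (log2 fold change 0.34 ± 0.099, edgeR adjusted p = 0.011). Without sh-luc 1, its log2 fold change was 0.26 and did not pass (edgeR adjusted p = 0.061).

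**Figure D4:**
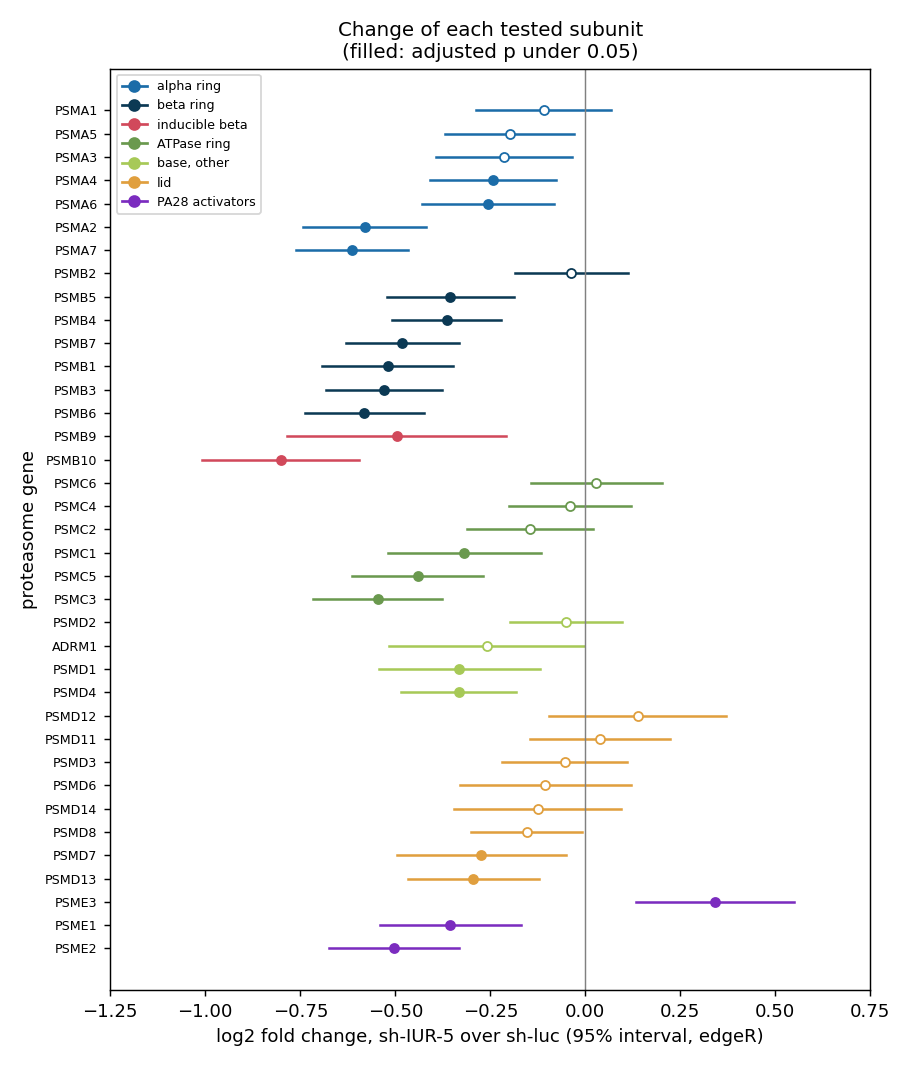
Log2 fold change of sh-IUR-5 over sh-luc for the 37 tested members (x axis) with 95% intervals from edgeR, by gene (y axis) and coloured by subgroup, filled where the adjusted p was under 0.05. PSMB10 lies farthest to the left at -0.80 and PSME3 farthest to the right at 0.34.

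Of the 22 members with a call, 11 passed in the same direction in each of 19 refits with other settings or with a library left out, namely PSMA2, PSMA7, PSMB1, PSMB3, PSMB4, PSMB6, PSMB7, PSMB10, PSMC3, PSMC5 and PSME2. All of them fell, and 8 of the 11 encode beta or alpha subunits. The 37 tested members include 14 constitutive core genes and 2 inducible beta genes. How many of all called genes passed in each of the refits was not counted. Of the others, PSME3 passed in 18 of the 19, PSMB5, PSMB9, PSMD4 and PSME1 in 16, PSMD13 in 15, PSMC1 in 13, PSMA6 and PSMD1 in 12, PSMA4 in 11 and PSMD7 in 8. Apart from PSME3, each of these others lost its call with total reads and with both limma fits. With total reads the log2 fold change was -0.15 for PSMB5, -0.29 for PSMB9, -0.15 for PSME1 and -0.09 for PSMD13. With the label series as a term PSMC2, PSMD8 and ADRM1 passed downwards too (edgeR adjusted p = 0.026, 0.02 and 0.013), which with PSMA3 and PSMA5 made 26 members lower. In that fit 29.1% of all genes were lower. The table lists isoforms in separate rows, 83 for the members, and how a read shared by isoforms was counted is not given in the sources used here. PSMA4, for instance, has 2 rows of 786 coding bases with 23671 and 23558 reads. GENCODE release 44 also places genes without a symbol on the same strand over 88.6% of the coding bases of PSMA1, 97.8% of PSMA2, 70.4% of PSMA6 and 58.3% of PSMB10, and reads from them cannot be told apart from the members' own.

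Around the particle, genes of related function did not move as one group. Of 9 assembly chaperones, 4 fell and 1 rose, with a median of -0.12 that turned to 0.09 with total reads, where 2 were lower and 3 higher. Their median level in sh-luc was 60.4 scaled RPKM, within the range of the most expressed bin. In that bin 54.1% of all genes were lower and 9.35% higher with TMM scaling. POMP, which guides maturation of the beta ring, had 632, 749.9 and 709 scaled RPKM in sh-luc and 428, 541 and 525 in sh-IUR-5 (log2 fold change -0.47 ± 0.088, edgeR adjusted p = 0.00041). PSMG4 (-0.49) and PSMG3 (-0.42), which together form a chaperone of the alpha ring, fell as well, as did PSMD9 (-0.33), though PSMG3 (-0.21) and PSMD9 (-0.12) did not pass with total reads. PSMD5, which binds the ATPase PSMC2 during base assembly, rose from 10.1, 11.8 and 12.8 to 15.9, 16.02 and 16.9 (log2 fold change 0.50 ± 0.098, edgeR adjusted p = 0.00056). Of the remaining subunits and caps, the lid subunit SEM1 fell from 1070.1, 1138 and 1144 to 574, 715 and 761 (log2 fold change -0.70 ± 0.089, edgeR adjusted p = 9.2e-06). PSME4, the single-chain activator PA200, rose from 3.13, 4.01 and 3.82 to 5.003, 5.42 and 6.14 (log2 fold change 0.61 ± 0.1, edgeR adjusted p = 0.00019). PSMF1 (0.05) and ECPAS (0.11) did not pass, and the germ cell and thymus subunits PSMA8 and PSMB11 were at most at 0.0612 scaled RPKM.

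Among 12 genes for deubiquitinases, ligases and shuttle factors that dock on the proteasome, 6 rose and 2 fell, with a median of 0.37. Their median level in sh-luc was 8.16 scaled RPKM, within the range of the middle bin, where the median of all genes was 0.05. In that bin 26.6% of all genes were higher and 17.5% lower. The median coding length of these genes was 1375.5 bases, in a length bin with a median of 0.02 over all genes. The ubiquilin shuttles UBQLN2 (0.76), UBQLN1 (0.60) and UBQLN4 (0.50) rose, as did the ligase UBE3C (0.67), the deubiquitinase USP14 (0.48) and the shuttle RAD23B (0.47). UBQLN2 had 3.74, 4.49 and 4.11 scaled RPKM in sh-luc and 6.59, 6.62 and 7.55 in sh-IUR-5, with no overlap (log2 fold change 0.76 ± 0.11, edgeR adjusted p = 2.8e-05). The thioredoxin-like TXNL1 (-0.23) and ZFAND2A (-0.46) fell, but with total reads neither passed (-0.03 and -0.25). TXNL1 also lost its call when any 1 library other than sh-IUR-5 3 was left out.

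NFE2L1, also called NRF1, is the transcription factor known to raise proteasome genes when proteasome activity is short, and DDI2 is the protease that releases it. Of 11 tested genes of a list around NFE2L1 and the VCP segregase, 7 rose and 1 fell, with a median of 0.45. The median level of this list in sh-luc was 5.14 scaled RPKM, near the boundary of bins whose medians over all genes were 0.14 and 0.05. In those bins 29.4% and 26.6% of all genes were higher and 9.75% and 17.5% lower. The list's median coding length was 1827 bases, in a length bin with a median of 0.12 over all genes. The part of level and length in these values was not tested. NFE2L1 had 4.22, 4.11 and 3.91 scaled RPKM in sh-luc and 5.61, 5.20 and 5.14 in sh-IUR-5, and DDI2 had 3.65, 3.51 and 4.69 in sh-luc and 8.02, 6.47 and 7.58 in sh-IUR-5. Both were higher in every sh-IUR-5 library (log2 fold change 0.40 ± 0.099, edgeR adjusted p = 0.0041 for NFE2L1, and log2 fold change 0.92 ± 0.13, edgeR adjusted p = 3.8e-05 for DDI2). MAFK (1.04, from a level near 1 scaled RPKM and with overlapping groups), OGT (0.67), HCFC1 (0.59), NPLOC4 (0.48) and NFE2L2 (0.28) also rose, and UFD1 fell (-0.34), which did not pass with total reads (-0.13). NFE2L2 lost its call when any 1 library was left out, and MAFK without sh-luc 1, sh-luc 2, sh-IUR-5 1 or sh-IUR-5 3. With total reads the list had 9 genes higher and a median of 0.65, and 39.3% of all genes were higher. VCP had a log2 fold change of 0.02, with a 95% interval of -0.13 to 0.17, and MAFF, with at most 0.473 scaled RPKM, was not tested.

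Of the ubiquitin genes, RPS27A (-0.72), whose product also contains a ribosomal protein, and the polyubiquitin gene UBB (-0.25) fell. UBB lost its call without sh-luc 1 (-0.20) and with total reads (-0.04). Ubiquitin genes share near-identical repeats, so the split of reads among them is uncertain. The activating enzyme UBA6 rose from 5.04, 6.52 and 5.65 to 12.5, 11.2 and 12.04 (log2 fold change 1.07 ± 0.099, edgeR adjusted p = 3.5e-07), while the main enzyme UBA1 had a log2 fold change of 0.01 with a 95% interval of -0.16 to 0.18. Class I antigen processing, which uses peptides from the proteasome, had 7 genes on its list that could be tested. With all 6 libraries none of the 7 passed in edgeR, DESeq2 or limma, and 0 of 7 had an unadjusted p under 0.05 in each. HLA-C, at 0.709 to 1.57 scaled RPKM, passed downwards without sh-IUR-5 1 (-0.84, edgeR adjusted p = 0.016). It also passed in label series 2 alone (-0.82, edgeR adjusted p = 0.026). B2M had 372, 369 and 357 in sh-luc and 342, 344 and 340.1 in sh-IUR-5, without overlap but also without passing (log2 fold change -0.08 ± 0.07, edgeR adjusted p = 0.36). TAP1 had 5.21, 4.85 and 5.16 in sh-luc and 6.22, 4.23 and 4.25 in sh-IUR-5 (log2 fold change -0.02 ± 0.13, edgeR adjusted p = 0.9). HLA-B, ERAP1, ERAP2 and NLRC5 were under the minimum level for the test.

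**Figure D5:**
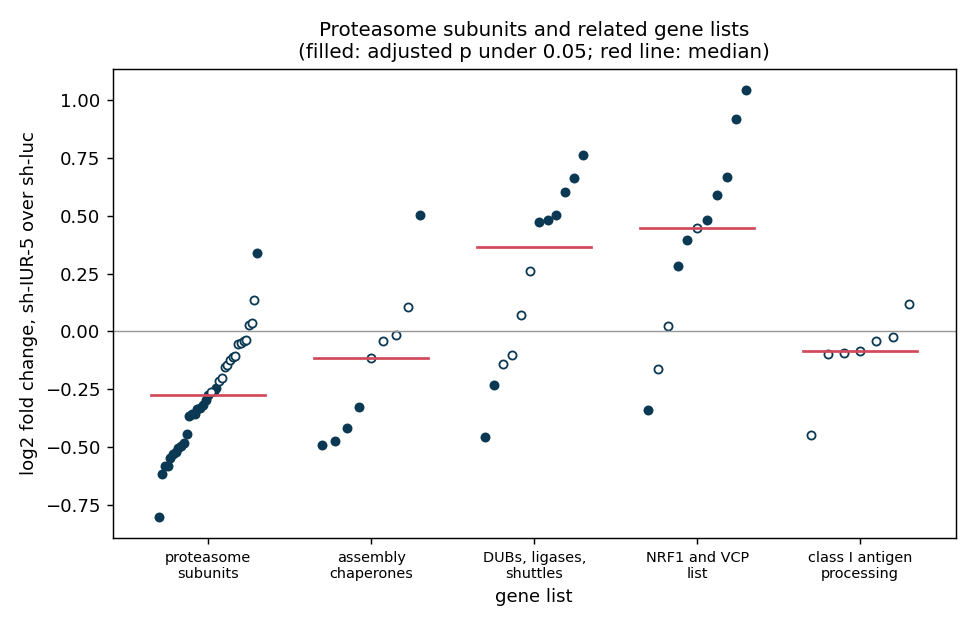
Log2 fold changes (y axis) of the tested proteasome subunits and of 4 related gene lists (x axis), with filled points for an adjusted p under 0.05 and red lines at the medians. The subunits have a median of -0.27, the docking factors 0.37 and the NFE2L1 and VCP list 0.45.

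Because NFE2L1 acts through antioxidant response elements, the core letters TGACNNNGC were searched in the same promoter windows on both strands. They were found in 12 of 41 member windows (29.3%) and in 13.3% of all 35116 windows. Stretches of 4 members with a match wholly before the RefSeq start of its window are shown, from the core, the ATPase ring and the lid. The matched letters are in capitals. PSMA4 and PSMC5 have another window with a start further upstream, and their matches lie after that start.
PSMA4 (chr15:78540640-78540688, plus strand): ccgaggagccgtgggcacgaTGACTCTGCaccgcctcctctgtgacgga
PSMB3 (chr17:38752617-38752665, plus strand): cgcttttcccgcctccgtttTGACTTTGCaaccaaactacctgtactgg
PSMC5 (chr17:63827644-63827692, plus strand): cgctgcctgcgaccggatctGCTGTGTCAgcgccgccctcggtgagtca
PSMD3 (chr17:39980750-39980798, plus strand): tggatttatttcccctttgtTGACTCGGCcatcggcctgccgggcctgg
PSMA4, PSMB3 and PSMC5 fell, and PSMD3 did not pass. The 11 tested members with these letters had a median log2 fold change of -0.33 and the 21 with a window but without them -0.20. The CCAAT letters were in 46.3% of member windows and 34.6% of all windows, and CCGGAAGT, the core of an ETS factor site, in 17.1% and 4.14%. TTCNNNGAA, the palindrome that STAT factors bind, was in 17.1% and 7.66%. Members with CCAAT had a median of -0.23 and those without -0.28, members with CCGGAAGT -0.16 and -0.26, and members with TTCNNNGAA -0.05 and -0.26. Each motif was counted on its own, and matches of different motifs may overlap. A match of letters in these windows describes the sequence and shows no binding.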

How the data were processed

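Total RNA of 6 libraries was sequenced, and strandedness is not given in the sources used here. Per the submitters' processing notes, the authors used CASAVA 1.8, Trimmomatic 0.32, Bowtie2 2.1.0 and SAMtools 0.1.19 with hg38. The authors deposited read counts without normalization and RPKM per RefSeq protein accession (109018 rows). RPKM equals reads divided by coding length and total reads. A deposited table of the authors' own comparison was not used.

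Counts were fitted with edgeR 4.0.16 (R 4.3.3) as TMM-scaled quasi-likelihood models, sh-IUR-5 against sh-luc, on 38204 rows with a mean RPKM of at least 1, with two-sided p-values adjusted by Benjamini-Hochberg and called under 0.05. Standard errors (± after a log2 fold change) come from the quasi-likelihood F statistic. The main model had no covariate. Symbols were matched for 64.7% of rows. PSMB8 was under the minimum. Ratios were compared by exact permutation. Alternatives used DESeq2 1.42.0, limma 3.58.1 and mgcv 1.9.3. Coordinates are from GENCODE release 44, promoters from RefSeq.

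Values per library were printed for the inducible subunits, their counterparts, PSME1, PSME2, the largest changes and up to 4 members of each subgroup. Related lists were counted whole with up to 4 of the largest changes named, and genes named beyond this rule, such as B2M and VCP, were picked with their values in view. A few genes of the related lists are not reported here. The members and lists were chosen with earlier results of these data known.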

Additional observations from a re-analysis of the deposited data

How the results depend on the processing

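Against 21 members lower, 1 higher and a median of -0.27, leaving out 1 library gave 16 to 24 lower, 0 to 2 higher and medians of -0.35 to -0.19, with 16 lower without sh-luc 2 and without sh-luc 3, and 0 higher without sh-luc 1, 2 without sh-IUR-5 1. In these fits 19.3% to 23.7% of all genes were lower. The scaling mattered most. limma on log2(RPKM + 0.1) and on log2(RPKM + 1) each gave 11 lower and 4 higher, with medians of -0.0885 and -0.0882, and total reads gave 11 lower, 5 higher and -0.0712, while the median of all genes moved to 0.18, 0.15 and 0.20, by construction of RPKM without TMM factors. Of all genes, 12.1% were lower in both limma fits and 12.0% with total reads, and 35.4%, 35.5% and 39.3% were higher. With a mean RPKM of at least 5 the members' median was -0.16. The 14256 accessions past the threshold became 11215 to 13582 with 1 library left out and, with fewer rows tested, 7356 at a mean RPKM of at least 5, 3995 with 1 row per gene, 4407 with summed rows, 4456 with GC and length trends removed together with the replicate block, and 3656 with those trends removed without it. Among single genes, PSMB2 turned to 0.16 under both limma fits and 0.17 with total reads, PSMG2 to 0.19 with total reads, and ECPAS to -0.20 and VCP to -0.14 with GC and length trends removed and the block. The cause was not tested. The log2 ratio of PSMB9 to PSMB6 ran from -0.0789 to 0.22 and that of PSMB10 to PSMB7 from -0.42 to -0.26 with 1 library left out. The PSMB9 ratio was -0.0564 without sh-luc 2 and -0.0789 without sh-IUR-5 1.

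Same-numbered libraries deviated together with correlations of 0.35, 0.11 and -0.01, so the numbers were not taken to pair the samples. Between the groups, libraries of different label series had correlations of -0.30 to -0.08, and those within series 2 of -0.01 to 0.26. The main model has no term for the series. Deviations from a group mean cancel within a group, so these correlations are not independent. With the replicate number as a block, 24 members were lower, 1 higher and 16831 accessions passed. With the label series as a term 26 members were lower. Of all genes, 27.4% were lower with the block and 29.1% with the series term. DESeq2 gave 20 lower (with 21.2% of all genes lower), its size factors in edgeR 21 (23.9%) and no minimum level 24 (27.3%). With 1 row per gene 20 were lower (21.7%), with summed rows 20 (23.2%) and with the length trend removed 19 (23.4%). GC and length trends removed gave 28 lower with the block (27.8% of all genes) and 24 without it (23.0%). Label series 2 alone gave 24 (24.3% of all genes). The fit of those trends without the block and that of series 2 alone were chosen after seeing the data. So was the addition of SEM1 to the lid sum, after which the core to lid ratios of the groups overlapped. For PSMB8 against PSMB5 no alternative was run, because PSMB8 had 0 reads in 4 libraries. Of the member fold changes under all alternatives, 51 changed sign without passing in either fit. Depth limits PSMB8, with at most 1 read per library.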

Other observations

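A few isoform rows of members went against the row with most reads. For PSMD1, the row NP_002798.2 fell with a log2 fold change of -0.33, while the shorter XP_016860006.1 rose by 0.48 (edgeR adjusted p = 0.0033), with 593, 760 and 728 reads in sh-luc and 1413, 1272 and 1354 in sh-IUR-5. For PSMC2, NP_001191382.1 rose by 0.32 (edgeR adjusted p = 0.016) against -0.15 for the full-length row. PSMB2 showed the reverse order, with -0.04 for NP_002785.1 and -0.52 for the short NP_001186709.1 (edgeR adjusted p = 0.000195), which had 999, 929 and 906 reads in sh-luc and 991, 833 and 937 in sh-IUR-5. The 4 rows of PSMA6 all fell, from -0.26 in the longest row of 741 coding bases to -0.57 in a row of 504. These rows were chosen after their values were seen.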
